A study of Mus musculus with 2 samples.

Results

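The cytosolic ribosome is built from ribosomal RNA and a set of small, abundant proteins, and each of those proteins has its own gene. The genes described here are the cytosolic ribosomal protein genes of mouse brown fat. They were chosen by name: every non-control probe whose gene name was Rpl or Rps followed by a digit, or Rplp0 (listed under its older name Arbp), Rplp1, Rplp2 or Rpsa (older name Lamr1), with the Rps6k kinases left out. The rule used no measured value. It found 76 probes of 59 genes, among 41174 distinct probes under 38354 gene names. The large (60S) subunit had 42 probes of 36 genes and the small (40S) subunit had 34 probes of 23 genes.

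RNA came from the interscapular brown adipose tissue of double-knockout mice (DKO), whose deleted genes include the nuclear receptor gene Rora, and of wild-type mice (WT). The labels give 4 male C57BL/6 mice per genotype, aged 2 to 3 months and sampled near circadian time 20. They do not say whether the mice were pooled or whether both arrays used the same extracts, so each genotype counts as 1 sample. DKO and WT RNA were labelled with different dyes and hybridised together on 2 arrays, with DKO in the red dye Cy5 on one and in the green dye Cy3 on the other. The labels name no Cre or promoter that would limit the deletion to a tissue.

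The 40S subunit reads the messenger RNA and the 60S subunit forms the peptide bonds. In mammals the ribosomal protein genes are active in every tissue, and their proteins are needed in fixed proportions. Most of their messenger RNAs begin with an uninterrupted run of C and T, the terminal oligopyrimidine tract, through which the kinase mTOR controls their translation. RORA binds DNA at an AT-rich stretch followed by AGGTCA and activates clock, lipid and other metabolic genes.

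In DKO brown fat, the ribosomal protein genes as a group stood at about their WT level relative to probes of like brightness. The loess curve fitted within each array centres probes of each brightness near 0, so an absolute level was not measured. Of the 76 probes, 70 probes of 58 genes were measured, meaning well above background in DKO or in WT on both arrays. Each value is the log2 of DKO over WT, turned to that direction on both arrays and averaged, with the SD over the 2 arrays (n = 2 arrays). The median ratio of the 70 probes was −0.01, against 0.0026 over all 32421 measured probes. By array, it was −0.05 where DKO carried Cy5 and 0.02 where DKO carried Cy3. The 60S median was −0.01 (40 probes) and the 40S median was −0.0075 (30 probes), so the subunits differed by less than the arrays did. With each array centred on its median in place of the loess curve, the ribosomal protein median was 0.11 and that of all measured probes 0.04. By array, the ribosomal protein median was then 0.28 with DKO in Cy5 and −0.02 with DKO in Cy3. Those of all measured probes were 0.08 and 0.0008.

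No ribosomal protein probe passed either rule of size. The 2-fold rule (mean of at least 2-fold, 1.5-fold or more in that direction on each array, and the genotype with more signal well above background each time) was passed by 0 of 70 probes, against 0.12% of all measured probes. The 1.5-fold rule (mean of at least 1.5-fold, each array the same way by at least 0.32 on the log2 scale, with the same condition on background) was also passed by 0 of 70, against 0.549% of all measured probes. With background shares this low, a count of 0 in 70 is no result about these genes in particular. With 1 sample per genotype there is no test. The SD over the 2 arrays holds dye and array error and any difference between extracts, and does not measure the spread between animals.

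The individual genes spread over a narrow range. Means ran between −0.33 (Rps19) and 0.53 (Rps6), and the middle 50% of probes lay between −0.07 and 0.05. A mean within 0.1 of 0 was found for 48 of 70 probes (68.6%), against 83.2% of all measured probes. The ribosomal protein probes are mostly bright, and bright probes spread more on these arrays. Among probes whose log2 intensity averaged 9 or more, 33 of 52 ribosomal protein probes (63.5%) lay within 0.1 of 0, against 56.2% of 3218 probes of that brightness.

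**Figure D1:**
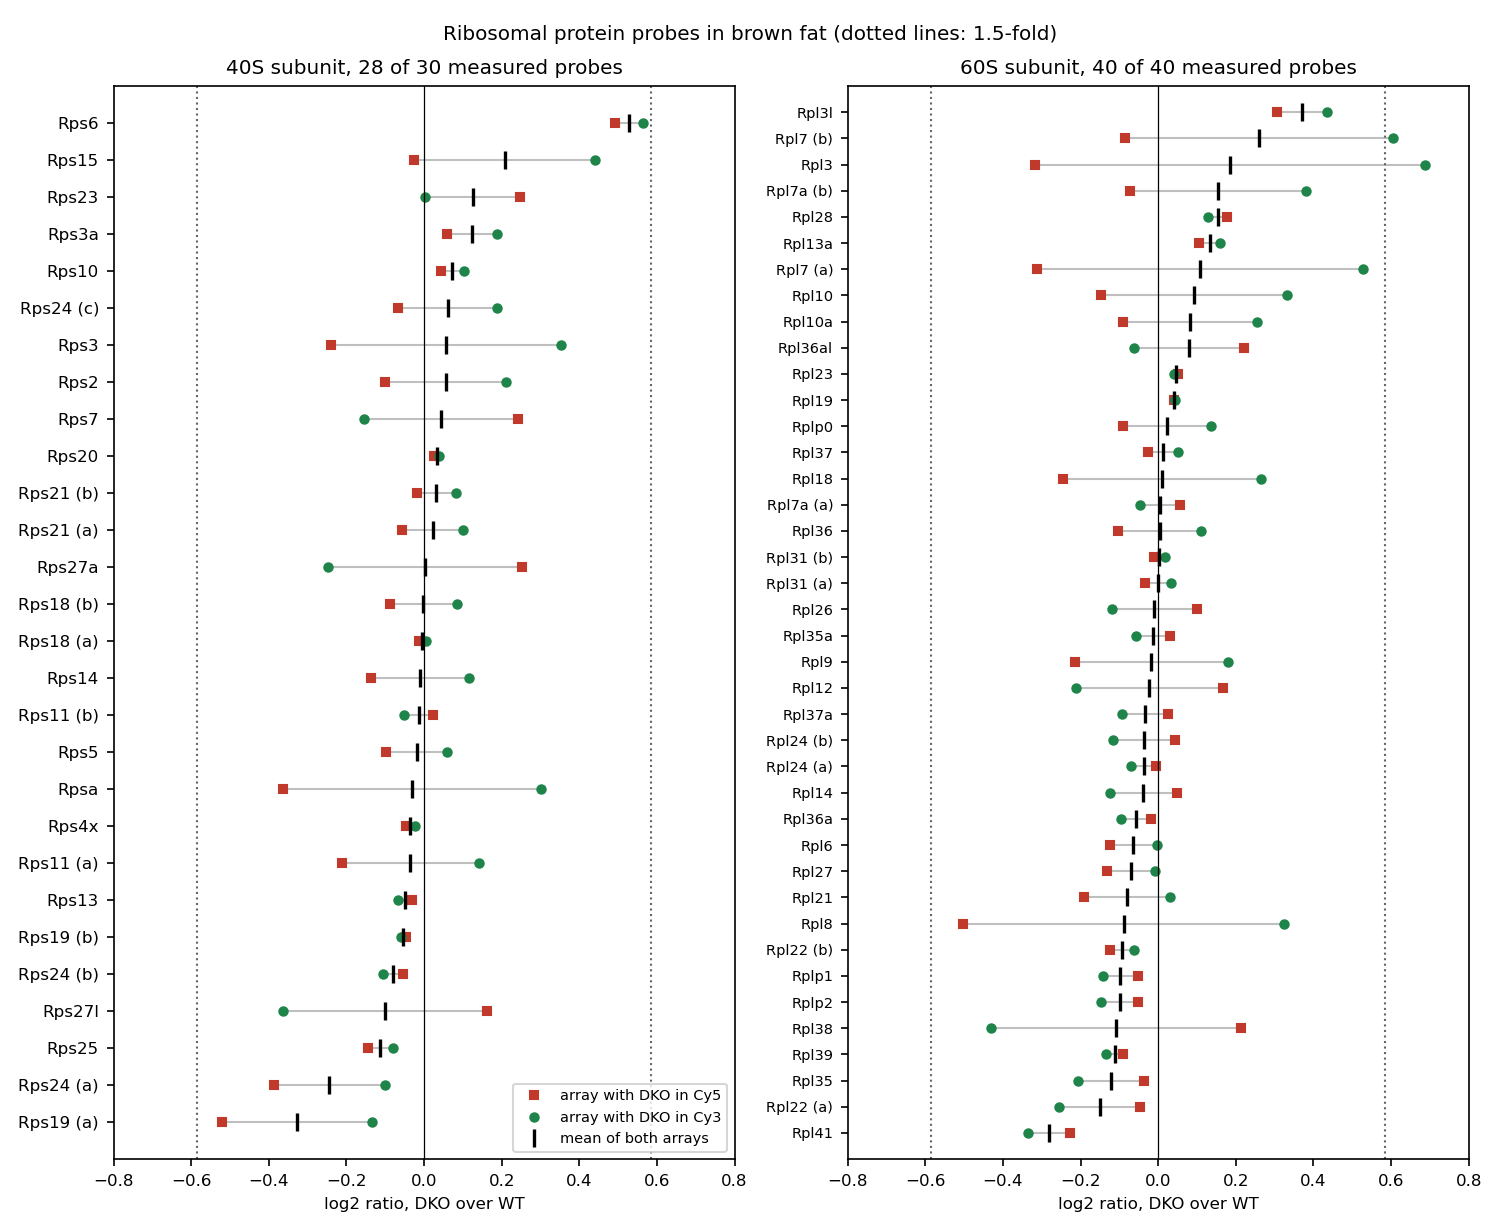
Log2 ratio of DKO over WT (horizontal axis) of 28 of the 30 measured 40S probes (left) and the 40 measured 60S probes (right), ordered by their mean; red squares are the array with DKO in Cy5, green circles the array with DKO in Cy3, black ticks the mean, and letters in parentheses mark different probes of 1 gene. Rps6 and Rpl3l lie right of 0 on both arrays, Rpl41 and the lowest Rps19 probe lie left of 0 on both, every mean lies inside the dotted 1.5-fold lines, and several probes such as Rpl3 and Rpl8 have their arrays on opposite sides of 0.

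Among the 40S genes, Rps6 was the one furthest above its WT level. Rps6 encodes the 40S protein that S6 kinase phosphorylates downstream of mTOR. The scanner software's processed signal of its bright probe was 25311 in DKO against 17547 in WT with DKO in Cy5, and 31734 in DKO against 21549 in WT with DKO in Cy3. Both DKO signals stood above both WT signals. The log2 ratio was 0.49 with DKO in Cy5 and 0.56 with DKO in Cy3, a mean of 0.53 ± 0.05 or 1.44-fold, just short of 1.5-fold. A dimmer Rps6 probe was not well above background in either genotype on both arrays and gives no second reading.

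The 40S genes lowest in DKO were Rps19 and Rps24. RPS19 is needed to mature the small-subunit RNA and is the gene most often mutated in human Diamond-Blackfan anaemia, and RPS24 is another gene of that disease. The processed signal of the brighter Rps19 probe was 8815 in DKO against 12755 in WT with DKO in Cy5, and 11946 in DKO against 13545 in WT with DKO in Cy3. The log2 ratio was −0.52 with DKO in Cy5 and −0.13 with DKO in Cy3, a mean of −0.33 ± 0.27, so the sign was shared and the size was not. Another Rps19 probe, dimmer, gave −0.05 ± 0.01, and −0.14 ± 0.05 by the software's own ratios.

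The brightest Rps24 probe had a processed signal of 41964 in DKO against 54376 in WT with DKO in Cy5, and 49886 in DKO against 54026 in WT with DKO in Cy3. Its log2 ratios were −0.39 with DKO in Cy5 and −0.10 with DKO in Cy3, a mean of −0.24 ± 0.20. Both other Rps24 probes were dimmer and closer to 0, so the size of the Rps24 value rests on 1 of 3 probes. One of them was below 0 on both arrays, at −0.08 ± 0.04, and the other had opposite signs, at 0.06 ± 0.18. By the software's ratios, which have no offset that draws dim probes towards 0, they gave −0.13 ± 0.04 and 0.17 ± 0.41.

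Rps15, Rps23, Rps3a and Rps25 were also among the 10 highest or the 10 lowest genes of the whole set, with smaller values. Rps15, whose protein sits in the head of the 40S subunit, averaged 0.21 ± 0.33, at −0.03 with DKO in Cy5 and 0.44 with DKO in Cy3, so its mean came from 1 array. Rps23, whose protein lies at the decoding centre, averaged 0.12 ± 0.17, and Rps3a averaged 0.12 ± 0.09. Rps25, whose protein takes part in initiation at internal ribosome entry sites, averaged −0.11 ± 0.05, below 0 on both arrays but at 0.03 under median centring.

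Most of the remaining 40S genes lay within 0.1 of 0 by their brightest probe. Rps4x, encoded on the X chromosome, averaged −0.03 ± 0.02, and Rps13 averaged −0.05 ± 0.02. Rps2 and Rps3, whose proteins line the channel where the messenger RNA enters, averaged 0.06 ± 0.22 and 0.06 ± 0.42. Rpsa, known also as the laminin receptor precursor, averaged −0.03 ± 0.47 by the one of its 3 probes that was measured. Rps27a, made as a fusion with ubiquitin, averaged 0.00 ± 0.35.

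Among the 60S genes, Rpl41 was the lowest in DKO. Rpl41 encodes the smallest protein of the ribosome. Its processed signal was 114406 in DKO against 132204 in WT with DKO in Cy5, and 116870 in DKO against 147212 in WT with DKO in Cy3. The log2 ratio was −0.23 with DKO in Cy5 and −0.34 with DKO in Cy3, a mean of −0.28 ± 0.08 or 0.82-fold. Rpl41 was below 0 on both arrays by more than the arrays differed.

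Rpl28 and Rpl13a stood slightly above WT on both arrays. RPL13A is known in human myeloid cells for leaving the ribosome to silence inflammatory messenger RNAs. The processed signal of Rpl28 was 22347 in DKO against 19364 in WT with DKO in Cy5, and 27278 in DKO against 25355 in WT with DKO in Cy3, a mean log2 ratio of 0.15 ± 0.04. That of Rpl13a was 12541 in DKO against 11521 in WT with DKO in Cy5, and 16464 in DKO against 14918 in WT with DKO in Cy3, a mean of 0.13 ± 0.04. In both genes the DKO signal was the higher within each array.

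Rpl22, Rpl35 and Rpl39 were below 0 on both arrays by small amounts. RPL39 lines part of the tunnel through which the new peptide leaves. The means were −0.15 ± 0.15 for Rpl22, −0.12 ± 0.12 for Rpl35 and −0.11 ± 0.03 for Rpl39. Rpl22 had another probe, at −0.09 ± 0.04. Under median centring Rpl35 and Rpl39 stood at 0.02 and 0.03, so their sign depended on the scaling.

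The stalk of the 60S subunit, which draws elongation factors to the ribosome, is built from RPLP0, RPLP1 and RPLP2. Rplp1 and Rplp2 had nearly equal ratios, at −0.10 ± 0.06 and −0.10 ± 0.07, below 0 on both arrays but at 0.06 each under median centring. Rplp0, often used as a reference gene in PCR work, averaged 0.02 ± 0.16 with opposite signs on the arrays. Rpl10, whose protein joins the 60S subunit late in its assembly, averaged 0.09 ± 0.34. Rpl19 averaged 0.04 ± 0.00 and Rpl37a −0.03 ± 0.08.

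**Figure D2:**
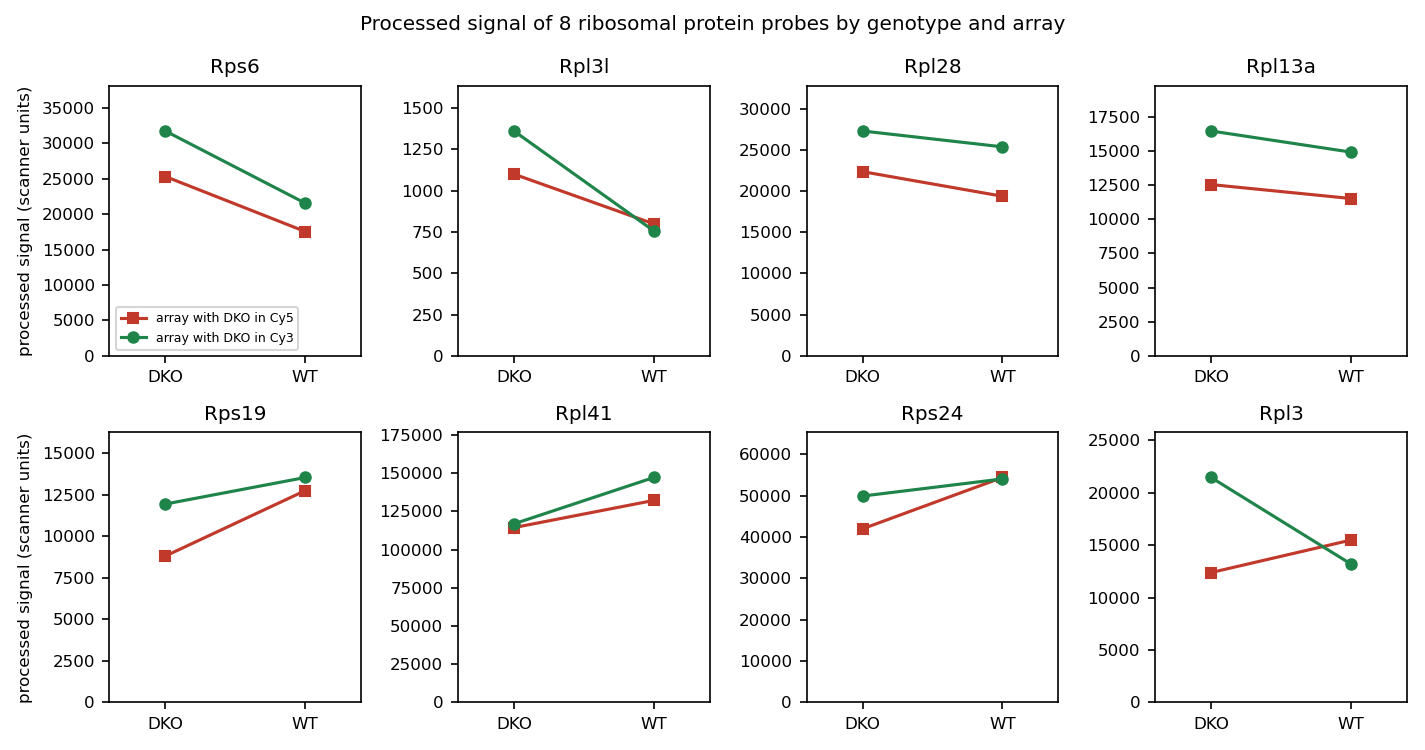
Processed signal in scanner units (vertical axes, starting at 0) in DKO (left) and WT (right) for 8 ribosomal protein probes; red squares are the array with DKO in Cy5, green circles the array with DKO in Cy3, and each line joins the genotypes hybridised together. Lines slope down towards WT on both arrays for Rps6, Rpl3l, Rpl28 and Rpl13a and up towards WT on both arrays for Rps19, Rpl41 and Rps24, and the lines of Rpl3 slope in opposite directions.

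Those genes other than Rpl3 were the ones with a probe at least 0.1 from 0 on each array in 1 direction. The upper side held 4 probes and the lower side 3, against 3.34% and 2.83% of all measured probes. At 0.3 on each array, Rps6 and Rpl3l were left on the upper side and 0 probes on the lower side. The background there was 0.697% higher and 0.555% lower. These shares are of all measured probes, dim ones included, and were not counted for bright probes alone. Of the 3218 probes with log2 intensity averaging 9 or more, 2.77% passed the 1.5-fold rule, against 0.549% of all measured probes.

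Their promoters are shown because the run of C and T at the start is the feature through which ribosomal protein messages are known to be controlled together. Each line gives 70 bases before and 30 bases from the RefSeq gene start (build GRCm38.p6), with the longest run of C and T within 10 bases of the start in capitals. The windows are chr4:86857338-86857437 (minus strand) for Rps6, chr7:4792895-4792994 (plus strand) for Rpl28, chr7:45128716-45128815 (minus strand) for Rpl13a, chr14:24490608-24490707 (plus strand) for Rps24, chr7:24884522-24884621 (plus strand) for Rps19, chr10:128549139-128549238 (minus strand) for Rpl41 and chr17:24727756-24727855 (plus strand) for Rpl3l.
Rps6: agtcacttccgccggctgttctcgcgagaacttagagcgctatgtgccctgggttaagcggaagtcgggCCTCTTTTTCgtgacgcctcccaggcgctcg
Rpl28: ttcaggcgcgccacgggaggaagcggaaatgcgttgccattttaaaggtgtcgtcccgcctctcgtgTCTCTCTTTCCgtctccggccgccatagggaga
Rpl13a: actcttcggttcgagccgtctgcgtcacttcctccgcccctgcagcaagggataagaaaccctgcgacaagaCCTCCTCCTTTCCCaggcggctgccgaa
Rps24: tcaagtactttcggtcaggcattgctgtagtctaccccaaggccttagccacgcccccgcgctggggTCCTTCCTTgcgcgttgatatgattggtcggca
Rps19: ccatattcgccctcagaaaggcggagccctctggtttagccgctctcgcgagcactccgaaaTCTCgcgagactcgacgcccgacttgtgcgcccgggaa
Rpl41: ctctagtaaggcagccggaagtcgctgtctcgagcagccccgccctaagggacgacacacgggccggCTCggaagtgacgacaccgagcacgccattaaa
Rpl3l: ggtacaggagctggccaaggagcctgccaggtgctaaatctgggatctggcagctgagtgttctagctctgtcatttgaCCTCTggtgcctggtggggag

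The run was 10 bases long in Rps6, 11 in Rpl28, 14 in Rpl13a and 9 in Rps24. It was 4 bases in Rps19, 3 in Rpl41 and 5 in Rpl3l. A long run thus stood at the start of genes on both sides of 0. RefSeq promoters were matched for 45 of the 59 genes. Of these, 16 (35.6%) had a run of at least 8 bases, against 13.5% of 27025 promoters. The annotated start need not be the start used in brown fat, so a short run here describes the window alone.

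The letters AGGTCA, on either strand of the 300-base promoter window, were found in 5 of the 45 promoters (11.1%), against 16% of all promoters. These were Rpl24, Rpl35a, Rpl3l, Rps3 and Rps4x. Rpl24 averaged −0.04 ± 0.11, Rpl35a −0.01 ± 0.06, Rps3 0.06 ± 0.42 and Rps4x −0.03 ± 0.02. Of the 5, Rpl3l was the only one whose mean lay over 0.1 from 0. A match in letters is a description and not a measured binding site.

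Of 9 listed paralogs of ribosomal proteins, 3 were on the array under their own names. Rpl3l, the form of Rpl3 made in heart and skeletal muscle, was the second highest of all ribosomal protein genes. Its processed signal was 1099 in DKO against 798 in WT with DKO in Cy5, and 1360 in DKO against 756 in WT with DKO in Cy3. Both DKO signals stood above both WT signals. The log2 ratio was 0.31 with DKO in Cy5 and 0.44 with DKO in Cy3, a mean of 0.37 ± 0.09 or 1.29-fold. Its signal is low, and the offset added before the logarithm draws the ratios of low signals towards 0. By the scanner software's own ratios, which have no such offset, the mean was 0.65 ± 0.27, and Rpl3l alone then passed the 1.5-fold rule upward, against 0.675% of all measured probes.

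Skeletal muscle markers lay above their WT level in the same DKO samples. All 10 markers on the array, of 15 listed, were measured. Of these, 9 were above 0 on both arrays and 0 below, against 19.5% and 17.8% of all measured probes. The 1.5-fold rule was passed upward by 6 (0.321% of all measured probes did), and the marker median was 0.64. The summed processed signal of the 10 muscle markers was 226326 in DKO against 152301 in WT with DKO in Cy5, and 282965 in DKO against 158653 in WT with DKO in Cy3. As log2 ratios the sums were 0.57 and 0.83, beside 0.46 and 0.85 for Rpl3l by the same signals. No marker was at 0 in either genotype. The part of muscle RNA in the Rpl3l value was not tested, and in a bulk sample more cells of a type and more RNA per cell cannot be told apart.

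The other paralogs lay nearer to 0. Rps27l, which the p53 protein induces in human cells, had ratios of 0.16 with DKO in Cy5 and −0.36 with DKO in Cy3, a mean of −0.10 ± 0.37. Rpl36al averaged 0.08 ± 0.20, also with opposite signs. RefSeq accessions named further probes outside the name rule. Rpl22l1, the paralog of Rpl22, averaged 0.17 ± 0.06, with 0.13 and 0.21 on the arrays, and Rpl7l1 averaged 0.03 ± 0.11.

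Most ribosomal protein probes changed sign between the arrays, as did most of all measured probes. Both arrays were above 0 for 10 of 70 probes (14.3%), against 19.5% of all measured probes, and both below 0 for 18 (25.7%), against 17.8%. Under median centring those counts were 26 above and 4 below, so which sign was the commoner turned with the scaling. The shares of all measured probes under that scaling are not given here. Opposite signs were found for 42 (60.0%), against 62.7%. Of these, 29 were below 0 with DKO in Cy5 and above 0 with DKO in Cy3, and 13 the other way. In all measured probes those shares were 30.2% and 32.5%. Over the 70 probes, Pearson's r between the arrays was −0.21, over points that share both arrays and both dyes, and it was −0.02 over all measured probes. At a log2 intensity of 9 or more, r was −0.27 over 52 ribosomal protein probes and 0.10 over all 3218 probes. There, 19 of the 52 were below 0 with DKO in Cy5 and above 0 with DKO in Cy3, and 11 the other way. Of the 3218, 1043 and 947 were.

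The arrays differed by more than 0.5 for 10 of 70 ribosomal protein probes (14.3%), against 5.51% of all measured probes and 20.2% of the 3218 bright ones. Rpl3, whose protein reaches towards the peptidyl transferase centre, had the widest gap. Its processed signal was 12379 in DKO against 15479 in WT with DKO in Cy5, and 21442 in DKO against 13188 in WT with DKO in Cy3. The log2 ratio was −0.32 with DKO in Cy5 and 0.69 with DKO in Cy3, a mean of 0.19 ± 0.71, so the gene was higher in whichever genotype carried Cy3. Rpl7 had the same pattern in both of its probes. The brighter gave −0.31 with DKO in Cy5 and 0.53 with DKO in Cy3, and the other gave −0.09 with DKO in Cy5 and 0.60 with DKO in Cy3.

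Rpl8, Rpl18, Rps3 and Rpsa shared that pattern. Rpl8 had −0.50 with DKO in Cy5 and 0.32 with DKO in Cy3, and Rpsa had −0.36 with DKO in Cy5 and 0.30 with DKO in Cy3. 3 probes went the other way, higher in whichever genotype carried Cy5. These were Rpl38, needed in mice for the translation of some Hox messages, at 0.21 with DKO in Cy5 and −0.43 with DKO in Cy3, and Rps27l and Rps27a. For these genes the mean was smaller than its SD, which always follows from opposite signs on the arrays and is no separate result. Averaging over a dye swap would cancel a dye term. Whether these gaps came from the dye, the array or the extract was not tested.

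**Figure D3:**
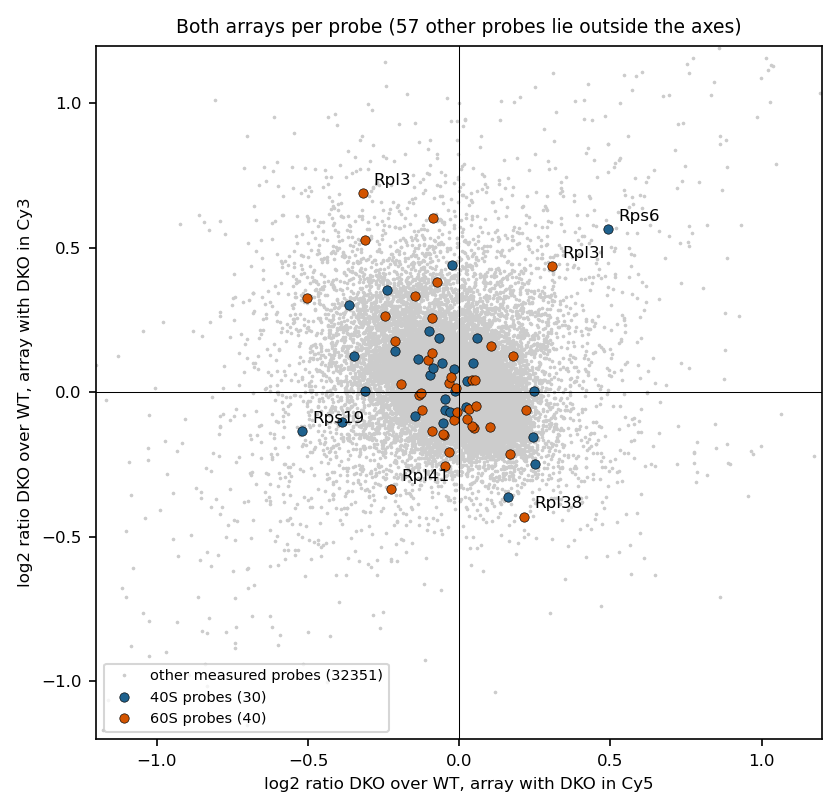
Log2 ratio of DKO over WT by array, with DKO in Cy5 on the horizontal axis and DKO in Cy3 on the vertical axis; blue points are the 30 measured 40S probes, orange points the 40 measured 60S probes and grey points the 32351 other measured probes, of which 57 lie outside the axes. Rps6 and Rpl3l lie in the upper right, where both arrays are above 0, Rps19 and Rpl41 in the lower left, Rpl3 in the upper left and Rpl38 in the lower right.

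Different probes of 1 gene mostly gave like values. Of 11 genes with more than 1 measured probe, 9 had probe means within 0.2 of each other. The median gap was 0.04. Of all ribosomal protein probes, 68.6% lay within 0.1 of 0, so probes of different genes would often lie this close too. The share for such pairs was not counted, so these gaps do not show that probes of 1 gene agree. Rps24 and Rps19 had the widest gaps, at 0.30 and 0.27, and in both genes the brighter probe was the lower one. Many ribosomal protein genes have near-identical pseudogene copies, and which copies each probe can bind was not analysed here.

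The 6 probes that were not measured were dim in both genotypes. They were 2 probes of Rpsa, 1 each of Rps2, Rps6 and Rpl9, and the pseudogene Rpl32-ps. All the genes among them except Rpl32-ps had another probe that was measured. None of the 76 probes was saturated or an outlier spot on either array, against 12 and 14 saturated spots on the whole arrays.

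Lists of genes that make, load and regulate ribosomes had medians between −0.03 and 0.02. None of the lists of translation, ribosome assembly, RNA polymerase I and mTOR genes had a member past the 1.5-fold rule, against 0.549% of all measured probes, so that count is no result about these genes. Of 40S proteins that the name rule leaves out, Fau (made as a fusion with a ubiquitin-like protein) averaged −0.01 ± 0.34 and Rack1 (a scaffold) averaged −0.04 ± 0.32. Of 24 measured initiation factors (38 listed), 5 (20.8%) were above 0 on both arrays, 0 below, and 79.2% had opposite signs. Over all measured probes those shares were 19.5%, 17.8% and 62.7%. The initiation factor median was 0.02, and the brightest, Eif1 and Pabpc1, averaged 0.00 ± 0.11 and 0.01 ± 0.16. The 4 measured elongation factors (10 listed) had a median of −0.03, with Eef1b2 at 0.15 ± 0.00 and Eef1d at −0.08 ± 0.06.

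Over all measured probes, 19.5% were above 0 on both arrays and 17.8% below. Of 24 measured assembly factors (50 listed), 7 were above 0 on both arrays (29.2%) and 4 below (16.7%), with a median of 0.02. The brightest were Fbl, the methyltransferase of ribosomal RNA, at 0.29 ± 0.15, and Npm1, a nucleolar chaperone, at 0.36 ± 0.25, both above 0 on both arrays. The 10 measured genes of RNA polymerase I and its factors (17 listed) had a median of 0.01, with Ubtf at 0.15 ± 0.45 and Polr1c at 0.05 ± 0.25. Of 15 measured genes of the list for mTOR, S6 kinase and Myc (20 listed), 5 were above 0 on both arrays (33.3%) and 4 below (26.7%). Their median was 0.02. Eif4ebp1, a translation repressor that mTOR switches off, averaged −0.11 ± 0.23, and Rheb, which activates mTOR, averaged 0.16 ± 0.15. Mtor itself was the lowest of that list at −0.31 ± 0.39. Larp1, whose protein binds the oligopyrimidine tract, averaged 0.09 ± 0.06, and of the S6 kinase genes Rps6kb2 averaged 0.05 ± 0.08 and Rps6kb1 was not measured. These 4 genes were named after their values were seen.

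**Figure D4:**
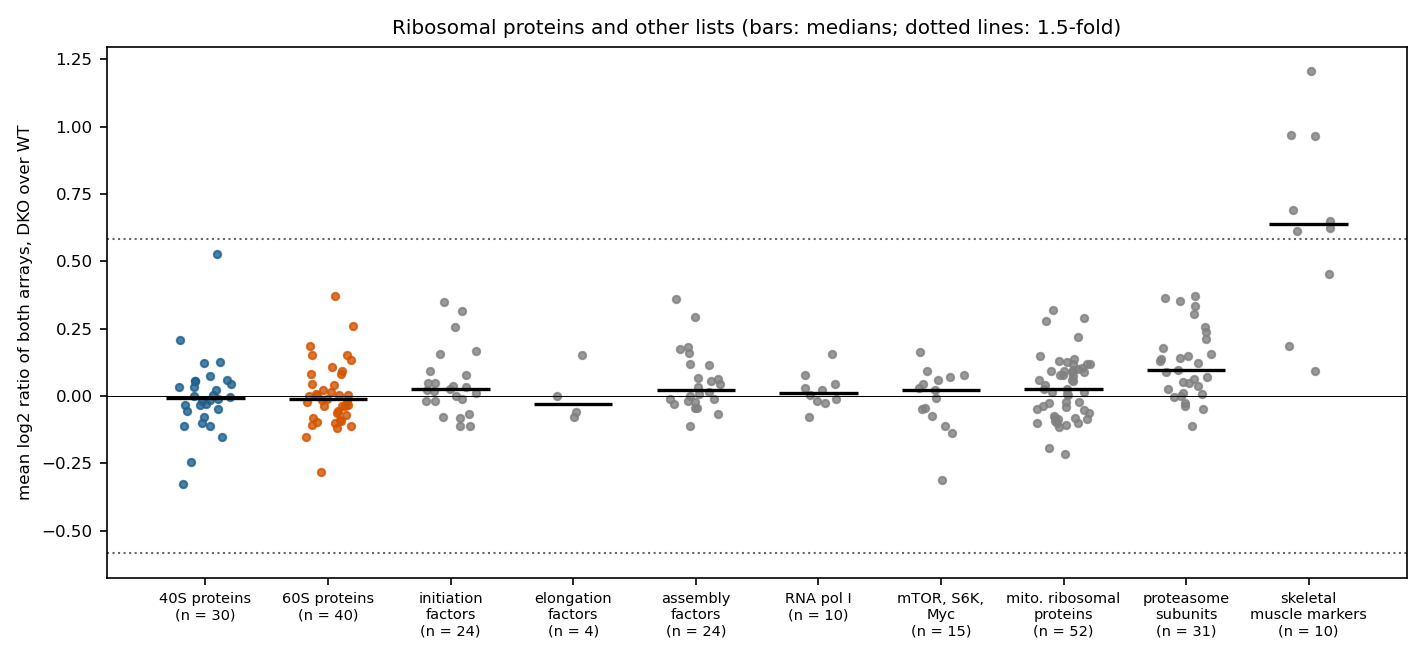
Mean log2 ratio of DKO over WT of both arrays (vertical axis) for the 40S and 60S probes (1 point per probe) and for 8 other lists (1 point per gene); bars are medians, dotted lines are 1.5-fold and n counts points. The ribosomal protein medians lie at 0 to within 0.02, the proteasome median lies at 0.10, and the muscle markers lie mostly above the upper dotted line.

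2 other sets of large-complex genes give a scale for these values. The 52 measured mitochondrial ribosomal proteins had a median of 0.03, with 13 above 0 on both arrays and 10 below, and 0 past the 1.5-fold rule. Their brightest members, Mrpl20 and Mrpl28, averaged 0.01 ± 0.31 and −0.09 ± 0.26. The 31 measured proteasome subunits had a median of 0.10, with 14 above 0 on both arrays (45.2%), 0 below and 0 past the 1.5-fold rule. The other 54.8% had opposite signs, against 62.7% of all measured probes. The proteasome median rested mostly on 1 array, at 0.0095 with DKO in Cy5 and 0.22 with DKO in Cy3, and was 0.22 under median centring. The differences between these sets and the ribosomal proteins were not tested.

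The genotype labels were checked against the deleted gene. Cell type markers were compared between the genotypes, which does not show which tissue the RNA came from. The 2 Rora probes gave log2 ratios of −0.38 ± 0.04 and −0.47 ± 0.10, below 0 on both arrays, and −0.96 and −1.52 by the software's ratios. Of 9 listed brown adipocyte markers, 8 were on the array and all 8 were measured. Against 19.5%, 17.8% and 0.321% of all measured probes, 5 were above 0 on both arrays, 1 below and 3 past the 1.5-fold rule upward. The median of the 8 markers was 0.47. They ran between −0.14 ± 0.02 (Cidea) and 1.89 ± 0.32 (Dio2), with the uncoupling protein gene Ucp1 at 0.73 ± 0.00. The 7 measured markers of all adipocytes had a median of −0.0053, and Lpl was the 1 past the 1.5-fold rule. The macrophage, T cell, B cell and endothelial marker lists had medians between −0.03 and 0.02, the fibroblast list −0.14 and the erythroid list, with 2 measured genes, −0.36. None of their members passed the 1.5-fold rule, against 0.549% of all measured probes. Of all spots, 85.4% were well above background in DKO and 80.0% in WT with DKO in Cy5, and 77.6% in DKO and 80.2% in WT with DKO in Cy3.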

How the data were processed

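RNA of interscapular brown fat from DKO and WT mice was measured on 2 two-colour Agilent whole mouse genome arrays with the dyes reversed. The authors scanned the arrays and extracted spots with Agilent Feature Extraction 7.5, per the file headers and the labels' protocols. The deposited files hold spot intensity values (mean, median and processed signals with local backgrounds) and the software's log10 ratio of red over green, per the file headers. The deposited value table holds log2 ratios with no stated scale; 40962 of 41001 and 41101 of 41141 of its values lay within 0.001 of the software's log2 ratio of red over green. A genome build was not given in the sources used here.

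Normexp (offset 50) corrected the mean signals against the median local background, and loess normalised each array, control spots at weight 0, in limma 3.58.1 (R 4.3.3). Outlier spots (171 and 29) were left out and spots of a probe averaged, which kept 40979 probes. Ratios were turned to DKO over WT and averaged over both arrays. Lists used 1 probe per gene, the brightest, under symbols updated through RefSeq tables. Further steps used Python 3.11.15 with pandas 2.3.3. The steps were tested on simulated data. The array number limits the precision.

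The members and lists were chosen with earlier results of these data known. The text names the 10 highest and 10 lowest ribosomal protein genes (by the brightest probe), all listed paralogs, genes past a size rule, genes whose probes differ by over 0.5, and the 2 brightest genes of each list; other members were named by role after their values were seen. Some named items are not reported here. Alternatives changed the background offset, signal summary, normalisation, probe filter, probe choice, size rule and arrays used, or took the software's ratios or the value table.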

Additional observations from a re-analysis of the deposited data

How the results depend on the processing

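No ribosomal protein probe and no member of the ribosome-related lists was called in the main setting, so there was no called direction to reverse. The sign of small values did depend on the processing. Median centring of each array, which fits no curve on intensity, moved most. The median log2 ratio of DKO over WT became 0.11 for all ribosomal protein probes, 0.11 for 60S and 0.11 for 40S. That of all measured probes became 0.04. By array, the ribosomal protein median became 0.28 with DKO in Cy5 and −0.02 with DKO in Cy3, so 1 array carried the rise. With median centring, 26 ribosomal protein probes were above 0 on each array, 4 were below on each, and 1 (Rps6) passed the 1.5-fold rule upward. Rpl35, Rps25, Rpl39, Rpl38 and Rps27l turned positive under it and kept their sign below 0 in the other 6 of 7 settings, both sets of deposited ratios included. List medians under it were 0.12 for Fau and Rack1, 0.063 for elongation factors, 0.15 for initiation factors, 0.084 for assembly factors, 0.069 for the mTOR list and 0.15 for mitochondrial ribosomal proteins. The software's ratios put 1 probe (Rpl3l) past the 1.5-fold rule upward, as did the value table (1), and gave medians of 0.026 for elongation and 0.078 for assembly factors. Each array alone gave ribosomal protein medians between −0.05 and 0.03, 0 to 2 probes past the 1.5-fold rule upward (Rpl3 and Rpl7 on the array with DKO in Cy3), elongation factor medians of 0.057 to 0.11 and mTOR list medians of −0.00029 to 0.031. The gene sets then differed, with 5 elongation factors with DKO in Cy5 against 4 in the main setting, and 16 mTOR list genes against 15. The 4 elongation factors of the main setting had medians of −0.0073 with DKO in Cy5 and 0.057 with DKO in Cy3. The cause of these shifts was not tested. With the ribosomal protein spots at weight 0 in the loess, so that they do not shape the curve, their median was −0.01. Each ratio pairs the 2 genotypes within an array, but with 1 sample of each genotype no paired test was possible. Dim probes are limited by signal over background, since the offset draws their ratios towards 0.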
